A study of Mus musculus with 24 samples.

Results

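Renal expression of 42 extracellular matrix and fibrosis genes was compared between diabetic mice given enarodustat, untreated diabetic mice and sham mice. The genes were listed by name, with no threshold on measured values, though the list was drawn up with earlier results of these data known. They comprise 5 fibrillar collagen chains, 4 chains of collagens VI and XIV, 10 basement membrane genes, 11 glycoprotein, proteoglycan and elastic fibre genes, 3 lysyl oxidases, 5 transforming growth factor beta (TGF beta) ligands and targets, and 4 metalloproteinases or inhibitors. All 42 had a probe among the 22911 named genes of the array, and 41 were among the 17736 genes tested. Tnc, which encodes tenascin C, was not tested because it exceeded the background clearly on only 3 of 9 DKD+enarodustat arrays, 2 of 9 DKD arrays and 0 of 6 Sham arrays.

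Total RNA of whole kidney from male Crl:CD1(ICR) mice was hybridised to 24 single-colour arrays, 1 per mouse. The DKD+enarodustat mice (n = 9) received 90 mg/kg of alloxan by vein 3 days before grouping and then feed that contained 0.01% (w/w) enarodustat. The DKD mice (n = 9), named for diabetic kidney disease, received the same alloxan and normal feed, and were matched to the treated mice on blood glucose and body weight. The Sham mice (n = 6) received vehicle in place of alloxan and normal feed, and all kidneys were collected on day 16 from grouping. Alloxan is a toxin that destroys insulin-producing beta cells, so the model is one of insulin lack, and enarodustat is an oral inhibitor of the oxygen-sensing enzymes (prolyl hydroxylases) that direct breakdown of hypoxia-inducible factor (HIF). Every mouse that received enarodustat was diabetic.

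The kidney matrix has an interstitial part, built by fibroblasts and pericytes from fibrillar collagens I, III and V with collagen VI, fibronectin and small proteoglycans, and basement membranes of collagen IV, laminin, nidogen and perlecan around tubules, capillaries and the glomerulus. Collagen chains are hydroxylated on proline and lysine in the endoplasmic reticulum, fold into triple helices, and are cross-linked outside the cell by lysyl oxidases. TGF beta, released from a latent complex, is the best known inducer of matrix genes in renal fibrosis, and metalloproteinases and their tissue inhibitors (TIMPs) govern matrix turnover.

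Levels are on a log2 scale on which 0 is the 75th percentile of processed signals on that mouse's array, and levels of different genes are not comparable because each has its own probe. Changes are differences of group means on this log2 scale, with the SE of the limma model. "Rose" and "fell" are used for an adjusted p under 0.05 (Benjamini-Hochberg over all tested genes). The 75th percentile corresponded to signals of 187 to 388, arrays of 1 group correlated at 0.96 to 0.989, and precision is limited by how many arrays there are. The arrays filled 3 slides of 8, each with 3 DKD+enarodustat, 3 DKD and 2 Sham arrays. Row 2 of the slides held all 9 DKD+enarodustat arrays and 3 DKD arrays, and row 1 held the other 6 DKD arrays and all 6 Sham arrays, so row and group cannot be told apart between DKD+enarodustat and Sham except through the DKD arrays. All markers of proximal tubule (5) and of distal tubule and collecting duct (6) were well above background on all 24 arrays. In whole kidney RNA, fewer cells of a type and less RNA per cell cannot be told apart.

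In the diabetic kidney 3 of the 41 tested genes changed against Sham, which is 7.32%, beside 11.6% of all tested genes. Thbs1, encoding the TGF beta activator thrombospondin 1, rose, while Postn, encoding the matricellular protein periostin, and Timp3, encoding a matrix-bound metalloproteinase inhibitor, fell, beside 5.47% of all genes that rose and 6.13% that fell. None of the 5 fibrillar collagens, 4 collagen VI and XIV chains, 10 basement membrane genes, 3 lysyl oxidases or 5 TGF beta genes passed, and 5 of the 41 genes had an unadjusted p under 0.05 (12.2%, beside 24.8% of all genes). The median change of the 41 genes was 0.05, beside −0.01 for all genes, with 22 above and 19 below 0. No gene of the 41 had DKD and Sham mice that did not overlap, beside 3.4% of all genes.

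Enarodustat was set against DKD to show which of these differences the drug moves. No gene of the 41 passed in that comparison (0 of 41, beside 0.716% of all genes, 0.609% higher and 0.107% lower), while 13 had an unadjusted p under 0.05 (31.7%, beside 10.9% of all genes). The changes lay above 0 for 34 of the 41 genes (82.9%, beside 51.1% of all genes), with a median of 0.24 beside 0.00 for all genes. All genes were read in the same mice, so counts over the 41 genes, here and in the other comparisons, are not 41 independent results. The lowest adjusted p was that of Sparc, which encodes the collagen-binding protein osteonectin.

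Against Sham, 9 of the 41 genes changed in DKD+enarodustat kidneys, 8 higher and 1 lower (beside 15.5% of all genes). Those that rose, at 19.5% beside 8.74% of all genes, were Fbn1, Lum, Lox, Thbs1, Col6a1, Col4a1, Nid1 and Tgfb3, and Timp3 fell, beside 6.75% of all genes. The median change was 0.29, beside −0.02 for all genes, with 32 above and 9 below 0. The comparisons share the DKD or the Sham arrays, so their values are not independent of each other. With slide row as a term, Fbn1 and Thbs1 were the 2 of these 9 that passed. In that fit Col4a1, Col6a1, Lox, Lum, Nid1 and Timp3 differed by 0.75, 0.61, 0.88, 0.81, 0.65 and −0.63. Each lay further from 0 than without the term, though it no longer passed. Tgfb3 differed by 0.38 with and without the term.

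**Figure D1:**
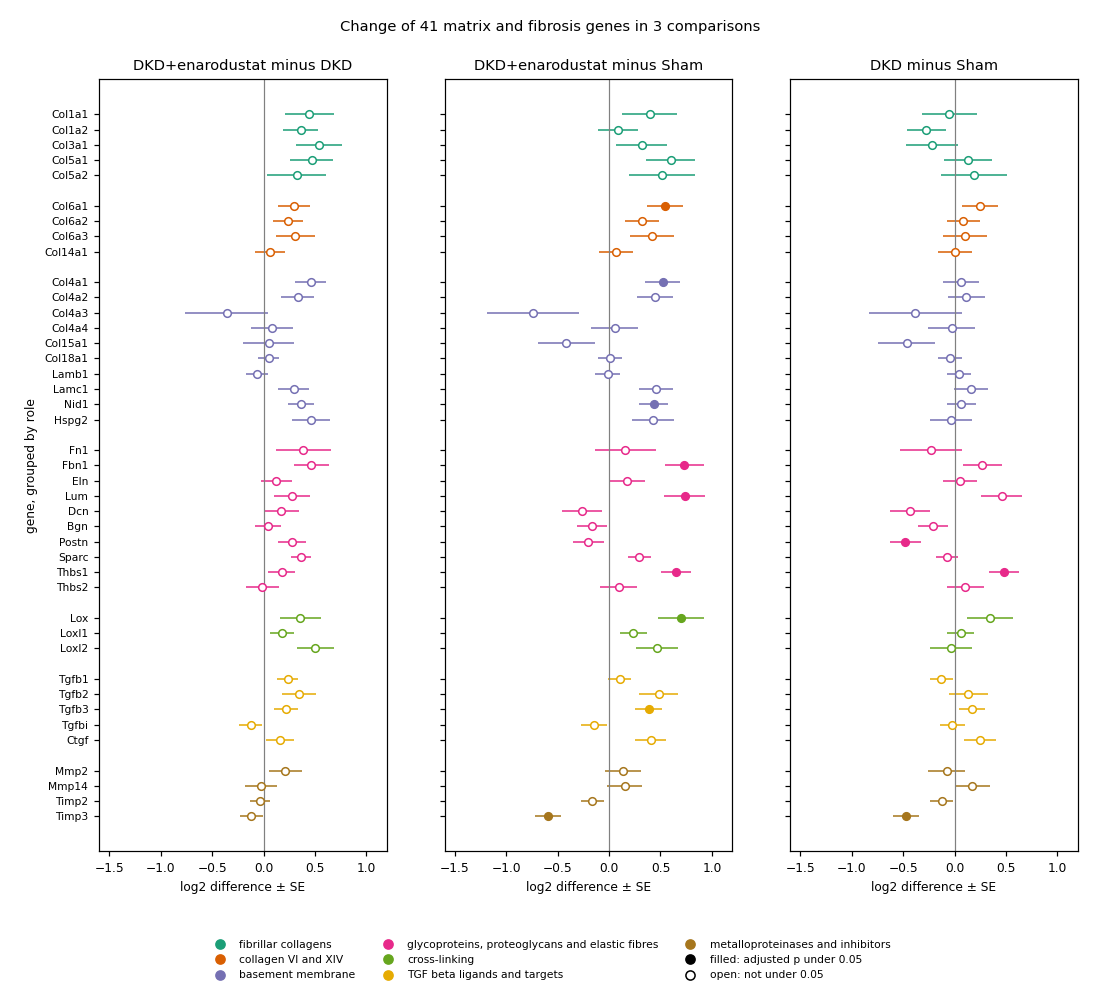
Log2 difference ± SE of each of the 41 tested genes in DKD+enarodustat minus DKD (left), DKD+enarodustat minus Sham (middle) and DKD minus Sham (right), with genes grouped by role and filled points for adjusted p under 0.05. No point is filled on the left, 9 are filled in the middle, and 3 are filled on the right.

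Among fibrillar collagens, the main load-bearing proteins of scar, no chain passed in any comparison. Col1a1, the alpha 1 chain of type I collagen, lay at −0.37, 0.25 and 0.59 (lowest, median and highest) in DKD+enarodustat mice, at −1.46, −0.35 and 0.87 in DKD mice, and at −0.57, −0.15 and 0.00 in Sham mice. The DKD mice covered the whole range of both other groups, with some mice above and some below every Sham mouse. The change was 0.45 ± 0.24 in DKD+enarodustat against DKD (adjusted p = 0.534, limma), 0.39 ± 0.27 against Sham (adjusted p = 0.348) and −0.05 ± 0.27 in DKD against Sham (adjusted p = 0.937). Within slides 1, 2 and 3, Col1a1 differed between DKD+enarodustat and DKD by 0.92, −0.39 and 0.81 and between DKD and Sham by −0.63, 0.46 and 0.01, so both differences changed sign between slides.

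Col3a1, the chain of type III collagen, which co-assembles with type I, lay at 0.75, 1.1 and 1.65 in DKD+enarodustat mice, at −0.35, 0.51 and 1.69 in DKD mice and at 0.47, 0.85 and 1.25 in Sham mice. All 9 DKD+enarodustat mice lay above the DKD mean, though the groups overlapped. The change was 0.54 ± 0.22 against DKD (unadjusted p = 0.0252, adjusted p = 0.359, limma), and within slides it was 0.98, −0.16 and 0.79. Col1a2, the alpha 2 chain of type I collagen, and the type V chains Col5a1 and Col5a2, which set fibril diameter, differed by 0.36, 0.47 and 0.33 in the same direction, each with an adjusted p over 0.05. Over the 5 chains the median change was 0.45 against DKD and 0.39 against Sham, and −0.05 in DKD against Sham. Col5a2 stood well above background on 9 of 9 DKD+enarodustat, 7 of 9 DKD and 5 of 6 Sham arrays.

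Collagen VI forms beaded microfilaments that link fibrils to cells and basement membranes. Its alpha 1 chain Col6a1 lay at 0.86, 1.29 and 1.63 in DKD+enarodustat mice, at 0.43, 0.74 and 1.73 in DKD mice and at 0.50, 0.69 and 0.86 in Sham mice. Of the DKD+enarodustat mice only the lowest lay within the Sham range, while 3 DKD mice lay above every Sham mouse and 6 within or below the Sham range. Col6a1 was higher by 0.54 ± 0.18 in DKD+enarodustat against Sham (adjusted p = 0.0370, limma), and within slides by 0.54, 0.46 and 0.63. The differences of 0.30 ± 0.16 against DKD (adjusted p = 0.524) and 0.25 ± 0.18 in DKD against Sham (adjusted p = 0.418) did not pass. The call against Sham was lost without any 1 of DKD+enarodustat mice 1, 2, 4, 7 and 8 or Sham mice 1, 2, 3, 5 and 6 (adjusted p up to 0.0738).

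Col6a2, the partner chain, differed by 0.32 between DKD+enarodustat and Sham (adjusted p = 0.190), and Col6a3 by 0.42 (adjusted p = 0.200). The 2 probes of Col6a3 disagreed, at 0.42 and −0.22. Col14a1, a fibril-associated collagen, differed by 0.07. The 4 chains had a median change of 0.37 in DKD+enarodustat against Sham, 0.27 against DKD, and 0.09 in DKD against Sham, with all 4 above 0 each time.

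The basement membrane genes include collagen IV chains found in most renal basement membranes and chains of the mature glomerular membrane. Col4a1 and Col4a2, which together form the widespread collagen IV network, are transcribed away from each other from 1 shared promoter region. Their RefSeq promoter windows (build GRCm38.p6, 250 bases before to 50 bases after the start) lie at chr8:11312777-11313076 on the minus strand for Col4a1 and at chr8:11312555-11312854 on the plus strand for Col4a2, with starts 21 bases apart. They are shown because both genes differed alike in every comparison, and the capitals mark the 78 bases that the windows share, each read on its own strand.
Col4a1: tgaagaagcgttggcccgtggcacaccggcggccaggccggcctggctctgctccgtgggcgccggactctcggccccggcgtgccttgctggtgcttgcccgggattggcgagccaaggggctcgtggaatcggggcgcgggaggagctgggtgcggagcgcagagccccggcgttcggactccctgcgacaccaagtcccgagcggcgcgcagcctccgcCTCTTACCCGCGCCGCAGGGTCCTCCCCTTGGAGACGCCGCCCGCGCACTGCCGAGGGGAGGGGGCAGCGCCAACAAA
Col4a2: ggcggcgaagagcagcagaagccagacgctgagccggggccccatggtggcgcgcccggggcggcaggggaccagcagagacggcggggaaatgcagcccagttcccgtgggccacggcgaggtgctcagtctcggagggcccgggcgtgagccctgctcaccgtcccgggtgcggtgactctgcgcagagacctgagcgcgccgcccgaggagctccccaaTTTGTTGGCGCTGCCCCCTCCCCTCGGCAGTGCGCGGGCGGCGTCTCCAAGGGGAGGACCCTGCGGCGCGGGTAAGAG
Read on either strand, each window holds a CCAAT box (CCAAT, or ATTGG where it lies on the opposite strand) and neither holds TATAAA.

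Col4a1 lay at 2.63, 2.99 and 3.29 in DKD+enarodustat mice, at 1.80, 2.44 and 3.12 in DKD mice and at 2.19, 2.49 and 2.71 in Sham mice. All 9 DKD+enarodustat mice lay above the DKD and Sham means, with 2 of them within the range of Sham. Col4a1 was higher by 0.52 ± 0.17 in DKD+enarodustat against Sham (adjusted p = 0.0396, limma) and differed by 0.46 ± 0.15 against DKD (unadjusted p = 0.00615, adjusted p = 0.212) and by 0.06 ± 0.17 in DKD against Sham (adjusted p = 0.875). The difference from DKD was 0.60, 0.29 and 0.48 within slides, and that from Sham 0.47, 0.45 and 0.64. The call against Sham was kept in 13 of 24 fits that left out 1 mouse, and lost without any 1 of DKD+enarodustat mice 1, 3, 4, 6, 7 and 8 or Sham mice 2 to 6 (adjusted p up to 0.0970). It was also lost with quantile normalization (adjusted p = 0.0557) and with no filter on dim probes (adjusted p = 0.0532). Col4a2 differed by 0.45 ± 0.18 in DKD+enarodustat against Sham (adjusted p = 0.0945), 0.33 ± 0.16 against DKD (adjusted p = 0.456) and 0.11 ± 0.18 in DKD against Sham (adjusted p = 0.761).

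Col4a3, a chain of the mature glomerular membrane made by podocytes and mutated in Alport syndrome, differed in the other direction without passing in any comparison. It lay at −1.65, 0.60 and 1.81 in DKD+enarodustat mice, at −0.99, 1.15 and 2.24 in DKD mice and at 0.51, 1.41 and 2.00 in Sham mice. The groups overlapped widely, and its SD was the largest of the 41 genes in both diabetic groups, 1.01 in DKD+enarodustat and 0.95 in DKD. The differences were −0.36 ± 0.40 in DKD+enarodustat against DKD (adjusted p = 0.860, limma), −0.74 ± 0.45 against Sham (adjusted p = 0.288) and −0.38 ± 0.45 in DKD against Sham (adjusted p = 0.665). Without DKD+enarodustat mouse 3, the lowest, the difference from DKD was −0.08 and that from Sham −0.46. Col4a4, its partner chain, differed by 0.05 between DKD+enarodustat and Sham. None of the 6 podocyte markers passed in any comparison. All 6 lay above 0 in DKD against Sham (beside 48.1% of all genes), with a median of 0.32, opposite in direction to Col4a3. Of these, 3 had an unadjusted p under 0.05 (limma, beside 24.8% of all genes). In DKD+enarodustat against DKD, 5 of the 6 lay below 0, and against Sham all 6 lay above 0.

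Nid1, encoding nidogen 1, which bridges laminin and collagen IV, lay at 1.41, 1.94 and 2.26 in DKD+enarodustat mice, at 1.12, 1.5 and 1.95 in DKD mice and at 1.35, 1.42 and 1.63 in Sham mice. Of the DKD+enarodustat mice 8 lay above the Sham mean, and 7 of them lay above every Sham mouse. It was higher by 0.43 ± 0.14 in DKD+enarodustat against Sham (adjusted p = 0.0385, limma) and differed by 0.37 ± 0.13 against DKD (unadjusted p = 0.00757, adjusted p = 0.237). The call was lost without any 1 of DKD+enarodustat mice 1, 3, 4, 7 and 8 or Sham mice 2 to 5 (adjusted p up to 0.0790), with quantile normalization (adjusted p = 0.0556) and with no filter on dim probes (adjusted p = 0.0523). Hspg2, encoding the heparan sulphate proteoglycan perlecan, differed by 0.46 ± 0.18 against DKD (adjusted p = 0.327) and 0.42 ± 0.20 against Sham (adjusted p = 0.167), and Lamc1, the laminin gamma 1 chain, by 0.29 and 0.45. The second probe of Lamc1 read −0.10 against Sham. Lamb1, the laminin beta 1 chain, and Col18a1, the source of endostatin, differed by −0.02 and 0.01 between DKD+enarodustat and Sham, and Col15a1, a basement membrane collagen of vessels, by −0.42 (adjusted p = 0.333). Of the 10 basement membrane genes, 2 rose against Sham, none fell, and 8 did not pass.

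**Figure D2:**
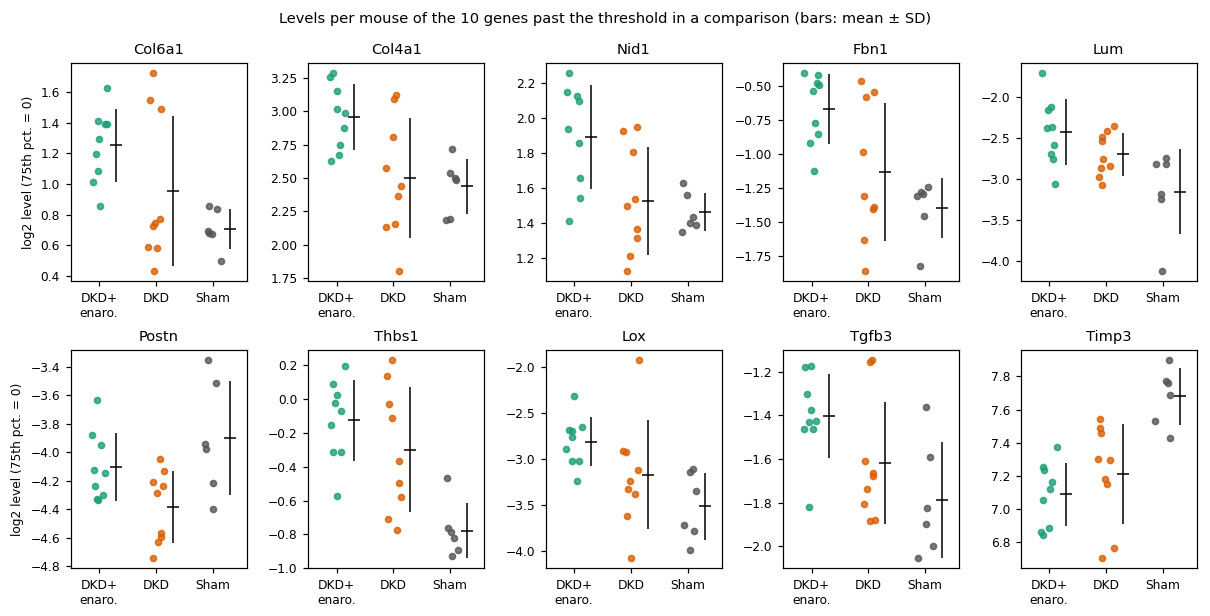
Level per mouse of the 10 genes that passed in at least 1 comparison, on the log2 scale set to 0 at each array's 75th percentile, in DKD+enarodustat (9 mice), DKD (9) and Sham (6), with mean ± SD beside the points. Fbn1 in DKD+enarodustat lies wholly above Sham and Timp3 wholly below it, while the other 8 genes overlap between groups.

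Fbn1 encodes fibrillin 1, the microfibril protein that binds latent TGF beta complexes. It lay at −1.13, −0.54 and −0.40 in DKD+enarodustat mice, at −1.86, −1.31 and −0.46 in DKD mice and at −1.83, −1.30 and −1.24 in Sham mice. Every DKD+enarodustat mouse lay above every Sham mouse. Fbn1 rose by 0.73 ± 0.19 against Sham (1.66-fold, adjusted p = 0.0101, limma), and by 0.76, 0.74 and 0.69 within slides. It differed by 0.46 ± 0.17 against DKD (unadjusted p = 0.0112, adjusted p = 0.271), with all 9 mice above the DKD mean, and by 0.27 ± 0.19 in DKD against Sham (adjusted p = 0.413). A second Fbn1 probe read 0.64 against Sham and 0.45 against DKD. Fbn1 and Timp3 were the 2 of 41 genes whose DKD+enarodustat and Sham mice did not overlap, a share close to the 4.94% of all genes.

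Lum, encoding the small leucine-rich proteoglycan lumican, which spaces collagen fibrils, lay at −3.06, −2.38 and −1.71 in DKD+enarodustat mice, at −3.07, −2.76 and −2.35 in DKD mice and at −4.13, −3.01 and −2.75 in Sham mice. All mice of both diabetic groups lay above the Sham mean. Lum rose by 0.73 ± 0.20 in DKD+enarodustat against Sham (adjusted p = 0.0142, limma) and differed by 0.46 ± 0.20 in DKD against Sham (adjusted p = 0.148) and 0.28 ± 0.18 between the diabetic groups (adjusted p = 0.648). Sham mouse 6 lay far below the others at −4.13, and without it the rise was 0.54 (adjusted p = 0.0407). After background correction by normexp with an offset and quantile normalization the difference was 0.19 (adjusted p = 0.152), in the deposited table it was 0.19 (adjusted p = 0.148), and with quantile normalization alone 0.62 (adjusted p = 0.0639).

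Thbs1 lay at −0.57, −0.07 and 0.20 in DKD+enarodustat mice, at −0.77, −0.37 and 0.23 in DKD mice and at −0.93, −0.81 and −0.47 in Sham mice. All 18 diabetic mice lay above the Sham mean, and only the highest Sham mouse reached into the range of DKD+enarodustat. It rose by 0.65 ± 0.15 in DKD+enarodustat against Sham (1.57-fold, adjusted p = 0.00419, limma) and by 0.48 ± 0.15 in DKD against Sham (1.39-fold, adjusted p = 0.0363). Within slides the rise in DKD was 0.50, 0.46 and 0.47, and that in DKD+enarodustat 0.81, 0.36 and 0.78. The diabetic groups differed by 0.17 ± 0.13 (adjusted p = 0.724), and the second probe read −0.07 there. Thbs2, its relative, differed by 0.09 in DKD+enarodustat and 0.10 in DKD against Sham. In DKD the Thbs1 call was lost without any 1 of DKD mice 2, 5, 6 and 8 or Sham mice 1, 2, 3, 5 and 6 (adjusted p up to 0.0795), and with only DKD and Sham fitted (adjusted p = 0.0676).

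Postn lay at −4.33, −4.14 and −3.63 in DKD+enarodustat mice, at −4.74, −4.28 and −4.04 in DKD mice and at −4.40, −3.96 and −3.35 in Sham mice. All 9 DKD mice lay below the Sham mean, and 4 of 6 Sham mice lay above every DKD mouse. It fell by 0.48 ± 0.15 in DKD against Sham (adjusted p = 0.0385, limma), within slides by 0.55, 0.26 and 0.64, and lay 0.28 ± 0.13 higher in DKD+enarodustat than in DKD (unadjusted p = 0.0496, adjusted p = 0.457). The call was kept in 5 of 12 alternative settings, and the difference was −0.12 with normexp (adjusted p = 0.0774) and in the deposited table (adjusted p = 0.0922). It was also lost without any 1 of DKD mice 2, 5, 6 and 8 or Sham mice 1, 3, 5 and 6 (adjusted p up to 0.124).

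Sparc, singled out after its values were seen, lay at 6.43, 6.65 and 6.90 in DKD+enarodustat mice, at 5.93, 6.24 and 6.79 in DKD mice and at 6.12, 6.37 and 6.47 in Sham mice. All 9 DKD+enarodustat mice lay above both other means. The difference from DKD was 0.37 ± 0.10 (unadjusted p = 0.000977, adjusted p = 0.0875, limma), and it passed with slide as a fixed block (adjusted p = 0.0373), not as a random one, and without DKD mouse 6 (0.43, adjusted p = 0.0141). Fn1, encoding fibronectin, which seeds collagen assembly, lay at 2.31, 2.99 and 3.77 in DKD+enarodustat mice, at 1.38, 2.74 and 3.41 in DKD mice and at 2.36, 2.85 and 3.48 in Sham mice. Its groups overlapped, and it differed by 0.39 ± 0.27 in DKD+enarodustat against DKD (adjusted p = 0.682), 0.16 ± 0.30 against Sham (adjusted p = 0.783) and −0.23 ± 0.30 in DKD against Sham (adjusted p = 0.703). Within slides, Fn1 differed between DKD and Sham by −0.84, 0.52 and −0.37.

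The small proteoglycans Dcn (decorin) and Bgn (biglycan), which bind collagen and TGF beta, differed by −0.26 and −0.17 in DKD+enarodustat against Sham and by −0.43 and −0.21 in DKD against Sham, all with adjusted p over 0.05. Eln, encoding elastin, differed by 0.18 and 0.05. Of the 10 tested genes in the glycoprotein, proteoglycan and elastic fibre group, 3 rose against Sham in DKD+enarodustat, and 1 rose and 1 fell in DKD.

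Lysyl oxidases oxidise lysines of collagen and elastin to form cross-links. Lox lay at −3.24, −2.76 and −2.32 in DKD+enarodustat mice, at −4.08, −3.23 and −1.93 in DKD mice and at −3.99, −3.53 and −3.11 in Sham mice. All DKD+enarodustat mice lay above the Sham mean, within a narrower band than the DKD mice, of which mouse 2 was the highest of all. Lox rose by 0.70 ± 0.22 in DKD+enarodustat against Sham (1.63-fold, adjusted p = 0.0334, limma), within slides by 0.74, 0.90 and 0.47. It differed by 0.36 ± 0.20 between the diabetic groups (adjusted p = 0.552) and 0.34 ± 0.22 in DKD against Sham (adjusted p = 0.367). With normexp and quantile normalization the rise was 0.19 (adjusted p = 0.172), 0.19 in the deposited table (adjusted p = 0.167) and with quantile normalization alone 0.56 (adjusted p = 0.0879), and the call was lost without any 1 of DKD+enarodustat mice 1 and 8 or Sham mice 2, 3 and 4 (adjusted p up to 0.0885). Loxl2, which cross-links collagen IV, differed by 0.51 ± 0.18 against DKD (unadjusted p = 0.0111, adjusted p = 0.270) and 0.47 ± 0.20 against Sham (adjusted p = 0.123), and Loxl1, the elastin-directed enzyme, by 0.18 and 0.24. All 3 genes lay above 0 in both comparisons of DKD+enarodustat.

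TGF beta ligands signal through SMAD factors to matrix genes. Tgfb1, the ligand most studied in renal fibrosis, lay at −2.11, −1.80 and −1.53 in DKD+enarodustat mice, at −2.39, −2.01 and −1.79 in DKD mice and at −2.18, −1.94 and −1.58 in Sham mice. The groups overlapped, and the DKD mice had the lowest median. It differed by 0.24 ± 0.10 in DKD+enarodustat against DKD (unadjusted p = 0.0277, adjusted p = 0.372, limma), 0.10 ± 0.11 against Sham (adjusted p = 0.587) and −0.13 ± 0.11 in DKD against Sham (adjusted p = 0.521).

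Tgfb3 lay at −1.82, −1.43 and −1.17 in DKD+enarodustat mice, at −1.88, −1.68 and −1.15 in DKD mice and at −2.06, −1.86 and −1.36 in Sham mice. With 8 of 9 mice above the Sham mean, it rose by 0.38 ± 0.13 in DKD+enarodustat (adjusted p = 0.0461, limma). The call was kept in 9 of 24 fits that left out 1 mouse, and lost without any 1 of DKD+enarodustat mice 2 to 8, DKD mice 1, 2, 7 and 8 or Sham mice 1, 2, 3 and 6 (adjusted p up to 0.114). Of 12 alternative settings it was kept in 6, and lost with normexp, quantile normalization, median scaling, the deposited table, no filter on dim probes and slide row as a term (down to 0.20, adjusted p up to 0.296). Tgfb2 differed by 0.48 ± 0.19 against Sham (adjusted p = 0.0842) and 0.35 ± 0.17 against DKD (adjusted p = 0.457).

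Ctgf (current symbol Ccn2), a classical TGF beta target that promotes matrix production, lay at 3.36, 3.77 and 4.07 in DKD+enarodustat mice, at 2.96, 3.60 and 4.03 in DKD mice and at 3.03, 3.35 and 3.64 in Sham mice. All 9 DKD+enarodustat mice lay above the Sham mean. The difference was 0.41 ± 0.15 against Sham (unadjusted p = 0.0134, adjusted p = 0.0714, limma), 0.16 ± 0.14 against DKD (adjusted p = 0.776) and 0.25 ± 0.15 in DKD against Sham (adjusted p = 0.334). It passed against Sham with quantile normalization (0.50, adjusted p = 0.0327). Tgfbi, a further TGF beta-induced matrix protein, differed by −0.15 against Sham and −0.12 against DKD.

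Of the 4 metalloproteinases and TIMPs, Timp3 fell in both diabetic groups and none rose. Timp3 lay at 6.85, 7.12 and 7.38 in DKD+enarodustat mice, at 6.70, 7.30 and 7.54 in DKD mice and at 7.43, 7.72 and 7.90 in Sham mice. All 9 DKD+enarodustat mice lay below every Sham mouse, and all 9 DKD mice lay below the Sham mean. Timp3 fell by 0.59 ± 0.13 in DKD+enarodustat against Sham (adjusted p = 0.00246, limma) and by 0.47 ± 0.13 in DKD against Sham (adjusted p = 0.0155). The fall was 0.64, 0.72 and 0.41 within slides for DKD+enarodustat and 0.56, 0.40 and 0.45 for DKD, and a second probe read −0.55 and −0.45. The diabetic groups differed by −0.12 ± 0.11 (adjusted p = 0.803). In DKD the difference was −0.35 with normexp and quantile normalization (adjusted p = 0.228), −0.34 with quantile normalization alone (adjusted p = 0.263) and −0.34 in the deposited table (adjusted p = 0.231). Timp2, Mmp2 (a gelatinase) and Mmp14 (the membrane protease that activates it) differed by −0.16, 0.13 and 0.15 in DKD+enarodustat against Sham, and none passed in any comparison.

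For most of the 41 genes the mice differed most among themselves in the DKD group. The SD over mice had a median over the 41 genes of 0.26 in DKD+enarodustat, 0.45 in DKD and 0.22 in Sham, beside 0.28, 0.31 and 0.20 over all genes in the same order. It was larger in DKD than in DKD+enarodustat for 38 of 41 genes (92.7%, beside 61.1% of all genes) and larger in DKD than in Sham for 36 of 41 (87.8%, beside 77.5% of all genes). Col1a1 had an SD of 0.32 in DKD+enarodustat, 0.78 in DKD and 0.24 in Sham, Col3a1 0.33, 0.70 and 0.27, and Col5a1 0.29, 0.66 and 0.25. The 3 exceptions with a larger SD in DKD+enarodustat than in DKD (beside 38.9% of all genes) were Col4a3, Lum and Tgfb1. The SD was larger in DKD+enarodustat than in Sham for 31 of 41 genes (75.6%, beside 71.2% of all genes). The genes share mice, so these counts are a description and the difference in spread was not tested. DKD was also the only group with arrays in both slide rows, and the part of row in its spread was not tested.

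**Figure D3:**
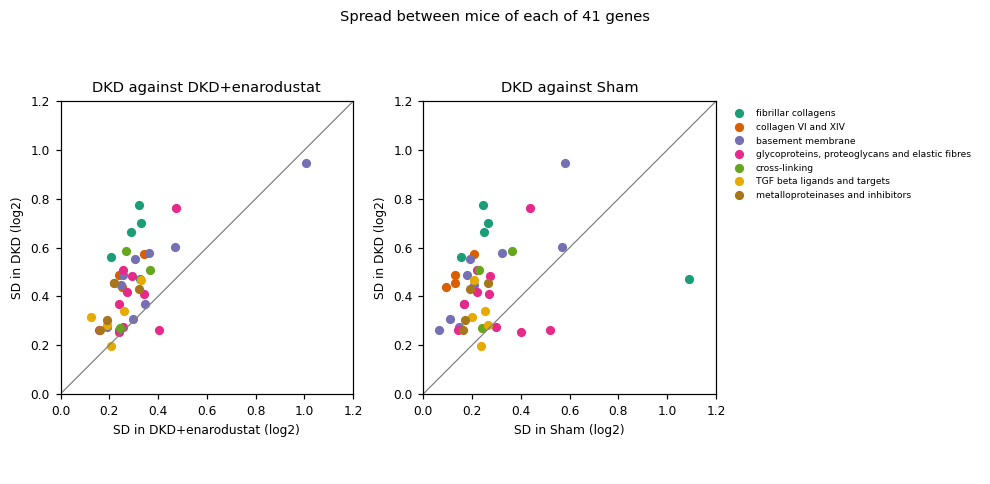
SD over mice of each of the 41 genes in DKD (vertical axis) against its SD in DKD+enarodustat (left) and in Sham (right), in log2 units, with colours for the gene groups and a line of equal SD. Of the 41 points, 38 lie above the line on the left and 36 on the right.

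Some DKD mice lay high or low over most, though not all, of the gene groups. DKD mouse 9 had 7 of 41 genes above the Sham mean and a median difference of −0.46 from it, with a median of −0.85 for the fibrillar collagens. DKD mice 5, 6 and 8 had 34, 38 and 30 genes above the Sham mean, with medians of 0.51, 0.45 and 0.34 and fibrillar collagen medians of 0.84, 0.71 and 0.54. Mice 1 and 3 had 12 and 11 genes above it and fibrillar collagen medians of −0.66 and −0.93. Other groups departed from this in the same mice, with a glycoprotein median of 0.02 in mouse 5, a TGF beta median of −0.07 in mouse 8, a cross-linking median of −0.01 in mouse 9, and basement membrane medians of 0.03 and −0.05 in mice 1 and 3. The DKD+enarodustat mice ranged from 22 to 36 genes above the Sham mean (median 30) and the Sham mice from 12 to 30 (median 20). Of the 3 high DKD mice, 5 and 6 lay on slide 2 and 8 on slide 3, and the low mice 1 and 3 lay on slide 1. The lowest, mouse 9, lay on slide 3 with mouse 8. DKD mice 3, 6 and 9 lay in slide row 2, and DKD mice 1, 5 and 8 in row 1. Mouse 4, on slide 2 with mice 5 and 6, had 19 genes above the Sham mean and a median of −0.04.

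**Figure D4:**
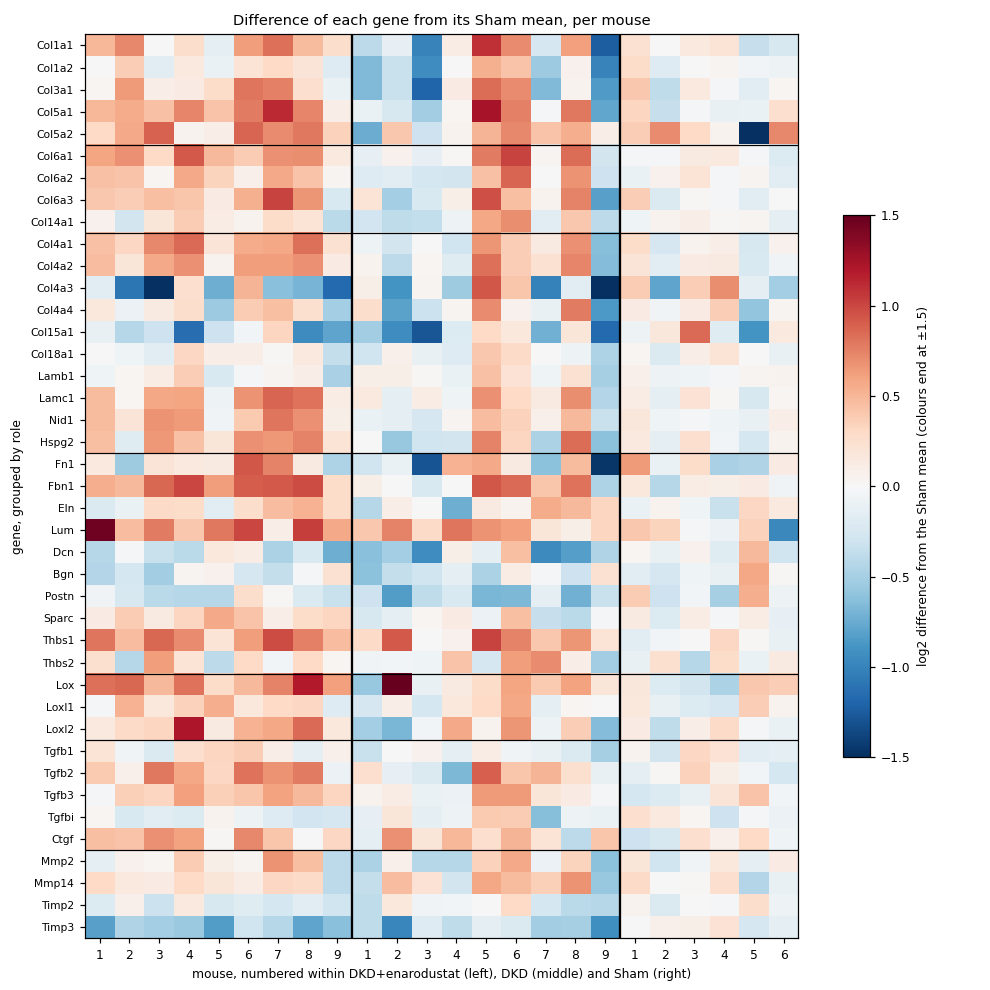
Log2 difference of each of the 41 genes from its Sham mean in each mouse, with genes grouped by role and mice numbered within DKD+enarodustat (left), DKD (middle) and Sham (right); colours end at ±1.5. DKD mouse 9 is below the Sham mean for 34 genes, and DKD mice 5 and 6 are above it for 34 and 38 genes.

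A further list held 19 genes of collagen modification and cross-linking, both enzymes and helpers such as chaperones, acting inside or outside the cell. Of these, 2 rose in DKD+enarodustat against DKD and none fell (beside 0.716% of all genes that passed), 6 rose and 1 fell against Sham (beside 15.5%), and 2 rose and 3 fell in DKD against Sham (beside 11.6%). Counts of the other lists given after it stand beside the same shares. The 2 that rose against DKD were P4ha1 and P4ha2, which encode catalytic subunits of the collagen prolyl 4-hydroxylases. P4ha3, a further catalytic subunit in the list, was tested and did not pass against DKD. The collagen prolyl 4-hydroxylases belong to the same class of oxygen-dependent enzymes as the HIF prolyl hydroxylases. P4ha1 is a known HIF target in other cells. P4ha1 lay at −0.64, −0.42 and −0.15 in DKD+enarodustat mice, at −1.87, −1.14 and −0.94 in DKD mice and at −1.17, −0.89 and −0.75 in Sham mice. Every DKD+enarodustat mouse lay above every mouse of the other groups. The rise was 0.87 ± 0.11 against DKD (adjusted p = 7.05e-05, limma) and 0.52 ± 0.12 against Sham (adjusted p = 0.00565), with −0.36 ± 0.12 in DKD against Sham (adjusted p = 0.0595). With slide row as a term the rise against DKD was 0.73 (adjusted p = 0.0537), and the call against Sham was lost too (adjusted p = 0.348).

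P4ha2 lay at 0.58, 0.75 and 0.91 in DKD+enarodustat mice, at 0.04, 0.37 and 0.65 in DKD mice and at 0.32, 0.37 and 0.46 in Sham mice. All DKD+enarodustat mice lay above every Sham mouse and above the DKD mean. It rose by 0.34 ± 0.07 against DKD (adjusted p = 0.0308, limma) and by 0.38 ± 0.08 against Sham (adjusted p = 0.00327). The call against DKD was lost with slide row as a term (0.24, adjusted p = 0.400), with only the 2 diabetic groups fitted, and without any 1 of DKD+enarodustat mice 1, 4, 8 and 9 and DKD mouse 1 (adjusted p up to 0.0606). The call against Sham was lost with slide row as a term (adjusted p = 0.300). The RefSeq promoter windows of both genes are shown because these were the 2 genes of the list that passed between the diabetic groups. They lie at chr10:59323046-59323345 and chr11:54100674-54100973 (GRCm38.p6, plus strand), and the capitals mark the hypoxia response core, ACGTG or GCGTG read on either strand, which occurs 3 times in P4ha1 and 4 times in P4ha2.
P4ha1: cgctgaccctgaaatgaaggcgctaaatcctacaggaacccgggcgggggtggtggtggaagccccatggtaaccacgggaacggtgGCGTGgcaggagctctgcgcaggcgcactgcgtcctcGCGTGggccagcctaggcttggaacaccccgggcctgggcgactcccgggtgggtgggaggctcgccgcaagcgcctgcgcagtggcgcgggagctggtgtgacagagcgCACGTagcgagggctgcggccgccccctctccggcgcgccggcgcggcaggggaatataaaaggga
P4ha2: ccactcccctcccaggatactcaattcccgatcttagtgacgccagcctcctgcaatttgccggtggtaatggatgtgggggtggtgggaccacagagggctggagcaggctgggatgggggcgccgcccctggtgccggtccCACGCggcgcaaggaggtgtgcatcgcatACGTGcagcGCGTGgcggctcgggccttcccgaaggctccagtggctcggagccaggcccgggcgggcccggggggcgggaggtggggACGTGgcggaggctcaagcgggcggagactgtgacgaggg
This core was present in 12 of 15 windows of 14 genes of this list (80.0%), in 16 of 30 windows of 26 of the 42 matrix genes (53.3%), and in 43.8% of 32851 windows of all genes. These shares are not adjusted for base content, and the windows of P4ha1 and P4ha2 are each 70.3% G or C. Other genes of the list held as many cores or more without passing against DKD, with 3 in P4hb, 4 in Plod3 and 7 in Ppib. Matches are a description of these letters and not of binding.

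Collagen-modifying genes also changed in DKD against Sham. Plod2, a lysyl hydroxylase and a known HIF target, fell by 0.80 ± 0.17 in DKD against Sham (adjusted p = 0.00374, limma), P4hb, the shared beta subunit of the prolyl 4-hydroxylases, by 0.50 ± 0.12 (adjusted p = 0.00822), while Loxl3, a lysyl oxidase, rose by 0.44 ± 0.13 (adjusted p = 0.0301) and P3h2, a prolyl 3-hydroxylase, by 0.41 ± 0.11 (adjusted p = 0.0124). Loxl4, a further lysyl oxidase, rose by 1.18 ± 0.22 in DKD+enarodustat against Sham (adjusted p = 0.000811), detected well above background on 9 of 9 DKD+enarodustat and 2 of 6 Sham arrays. P4hb fell by 0.51 ± 0.12 in that comparison (adjusted p = 0.00567). In DKD, Plod2, P4hb and P3h2 passed in all 12 alternative settings, while Loxl3 was lost with normexp, quantile normalization, the deposited table and slide row as a term (down to 0.07, adjusted p up to 0.278). Loxl4 was lost with the mean of its probes and with slide row (adjusted p up to 0.414), and its lowest value over all 10 settings was 0.12.

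**Figure D5:**
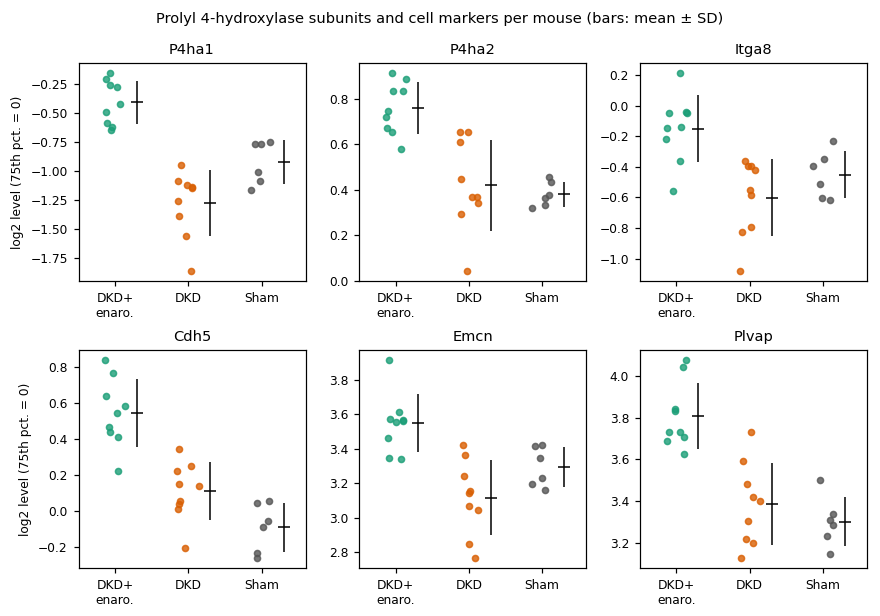
Level per mouse of P4ha1 and P4ha2 and of the mesangial marker Itga8 and the endothelial markers Cdh5, Emcn and Plvap, on the log2 scale set to 0 at each array's 75th percentile, with mean ± SD beside the points. P4ha1 in DKD+enarodustat lies above all mice of both other groups, and the remaining 5 genes overlap with DKD.

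Among 26 TGF beta pathway genes, none passed in DKD+enarodustat against DKD (2 with an unadjusted p under 0.05, beside 10.9% of all genes). In DKD against Sham 3 rose and 1 fell, and in DKD+enarodustat against Sham 3 rose and 3 fell. Ltbp2, a latent TGF beta binding protein of microfibrils, rose by 0.92 ± 0.23 in DKD+enarodustat (adjusted p = 0.00848, limma) and 0.95 ± 0.23 in DKD (adjusted p = 0.00802). Ltbp3, which carries latent TGF beta, rose by 0.50 ± 0.14 in DKD+enarodustat and 0.53 ± 0.14 in DKD (adjusted p = 0.0130 and 0.0111), and Lrrc32, which anchors latent TGF beta on cells, rose by 0.48 ± 0.11 in DKD+enarodustat and 0.47 ± 0.11 in DKD (adjusted p = 0.00373 and 0.00537). Pmepa1, a TGF beta-induced inhibitor of SMAD signalling, fell by 0.71 ± 0.13 in DKD+enarodustat (adjusted p = 0.000888) and by 0.78 ± 0.13 in DKD (adjusted p = 0.000462). Pmepa1 passed in all 12 alternative settings in both comparisons. Ltbp2 was lost in DKD+enarodustat with normexp and the deposited table (adjusted p up to 0.0600), and its lowest values over the settings were 0.19 in DKD+enarodustat and 0.21 in DKD. In DKD+enarodustat, Lrrc32 was lost with slide row as a term (adjusted p = 0.231) and Ltbp3 with the mean of its probes (adjusted p = 0.0670).

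Of 14 other basement membrane genes, none passed against DKD, 5 rose and 1 fell in DKD+enarodustat against Sham, and 2 rose in DKD. Frem2, of the Fraser complex, rose by 0.64 ± 0.21 and Lama1, the laminin alpha 1 chain of tubular basement membrane, fell by 0.52 ± 0.16 in DKD+enarodustat (adjusted p = 0.0360 and 0.0334). Lamb3, a laminin beta chain, rose by 0.50 ± 0.13 in DKD (adjusted p = 0.0170). Lamb3 was lost with normexp, quantile normalization and the deposited table (down to 0.12, adjusted p up to 0.156), Frem2 with these and the mean of its probes (down to 0.31, adjusted p up to 0.0627), and Lama1 with normexp, quantile normalization and slide row (adjusted p up to 0.654). Among 11 tested other collagens, Col12a1, a fibril-associated chain, rose by 0.68 ± 0.16 in DKD+enarodustat (adjusted p = 0.00505) and 0.57 ± 0.16 in DKD (adjusted p = 0.0183), and Col5a3, a type V chain, by 1.04 ± 0.25 in DKD+enarodustat (adjusted p = 0.00688). None of the 11 passed against DKD. Col5a3 was lost with the mean of its probes (adjusted p = 0.0785), and Col12a1 with slide row in DKD+enarodustat (adjusted p = 0.0699) and with the deposited table and the mean of its probes in DKD (adjusted p up to 0.0757).

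Of 24 other glycoproteins and proteoglycans, none passed against DKD, 6 rose and 1 fell in DKD+enarodustat against Sham, and 1 rose and 1 fell in DKD. Aspn (asporin), a small proteoglycan, rose by 1.03 ± 0.21 in DKD+enarodustat (adjusted p = 0.00159, limma) and 0.83 ± 0.21 in DKD (adjusted p = 0.00949), detected well above background on 2 of 6 Sham arrays. Fmod (fibromodulin), another collagen-binding proteoglycan, fell by 0.69 ± 0.14 in DKD+enarodustat and 0.48 ± 0.14 in DKD (adjusted p = 0.00153 and 0.0233). Among 19 tested other proteases and inhibitors, none passed against DKD, 6 rose and 2 fell in DKD+enarodustat against Sham, and 4 rose and 2 fell in DKD. Timp1, the inducible TIMP, rose by 0.71 ± 0.18 in both (adjusted p = 0.00945 in DKD+enarodustat and 0.0110 in DKD), opposite in direction to Timp3. Adamts4, an aggrecanase, rose by 1.70 ± 0.40 in DKD+enarodustat (adjusted p = 0.00560) and 1.23 ± 0.40 in DKD (adjusted p = 0.0467), detected well above background on 4 of 6 Sham arrays. The Adamts4 call in DKD was kept in 3 of 10 alternative settings (down to 0.15, adjusted p up to 0.227), and that in DKD+enarodustat was lost with slide row, with a lowest value of 0.26. Aspn was lost in DKD+enarodustat with slide row (adjusted p = 0.0932) and in DKD with normexp (adjusted p = 0.111), with lowest values of 0.10 and 0.08. In DKD+enarodustat, Fmod was lost with slide row, and Timp1 with slide row, normexp and the deposited table (down to 0.29, adjusted p up to 0.0708).

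Markers of several cell types were read beside these genes. Of 6 endothelial markers, all 6 lay higher in DKD+enarodustat than in DKD (beside 51.1% of all genes), and 3 rose (beside 0.609% of all genes). All 6 macrophage markers lay higher there as well, with a median of 0.24 beside 0.34 for the endothelial markers, and none of the macrophage markers passed. Cdh5 (VE-cadherin) rose by 0.43 ± 0.08 (adjusted p = 0.0103, limma) and Emcn (endomucin) by 0.43 ± 0.09 (adjusted p = 0.0191), and against Sham 4 of 6 rose (beside 8.74% of all genes). With slide row as a term none of the 3 passed against DKD (Cdh5 adjusted p = 0.243, Emcn 0.370, Plvap 0.349), and Emcn and Plvap were lost with only the diabetic groups fitted. The median endothelial difference from the Sham mean ranged over mice from 0.22 to 0.52 in DKD+enarodustat, from 0.01 to 0.20 in DKD and from −0.11 to 0.13 in Sham. Itga8, an integrin of mesangial cells, rose by 0.45 ± 0.10 against DKD (adjusted p = 0.0402) as 1 of 4 mesangial markers. The Itga8 call was lost with no filter on dim probes, slide row as a term and only the diabetic groups fitted (adjusted p up to 0.208). Of the 4 mesangial markers, 3 lay above 0 against DKD and 1 below. The marker below was Gata3, with means of 1.85 in DKD+enarodustat, 1.96 in DKD and 1.64 in Sham. Gata3 rose in DKD against Sham and passed there in all 12 alternative settings.

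Of 10 fibroblast and pericyte markers, none passed against DKD, and 2 rose in DKD+enarodustat against Sham, S100a4 by 0.88 ± 0.17 (adjusted p = 0.00101, limma) and Vim (vimentin) by 0.45 ± 0.08 (adjusted p = 0.000613). Both were lost with slide row as a term (adjusted p = 0.0781 and 0.0896). In DKD against Sham 2 rose as well, Cspg4 by 0.59 (adjusted p = 0.0409) and Vim by 0.30 (adjusted p = 0.0167), of which Vim passed in all 12 alternative settings and Cspg4 in 8. Their median difference from the Sham mean ranged from 0.15 to 0.52 in DKD+enarodustat, from −0.08 to 0.40 in DKD and from −0.09 to 0.11 in Sham. The myofibroblast marker Acta2, smooth muscle actin, named after its values were seen, differed by −0.11 in DKD+enarodustat against Sham (adjusted p = 0.514), and Cnn1 (calponin 1) was the 1 of 6 markers of myofibroblasts and smooth muscle that passed, at 0.70 ± 0.17 (adjusted p = 0.00711), and was lost with slide row and with the mean of its probes (adjusted p up to 0.127). The macrophage receptor Csf1r fell by 0.65 ± 0.14 in DKD+enarodustat and 0.89 ± 0.14 in DKD (adjusted p = 0.00306 and 0.000264), as the 1 of 6 macrophage markers that passed, and the call in DKD+enarodustat was lost with slide row (adjusted p = 0.168). Of the 6 macrophage markers, 3 lay above 0 against Sham in DKD+enarodustat and 1 in DKD. Of 5 proximal tubule markers 2 fell in DKD+enarodustat against Sham, and of 6 distal markers 3 rose and 1 fell. All of these markers were well above background on all 24 arrays except Fap (16 arrays), and their part in the differences of the matrix genes was not tested.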

How the data were processed

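Kidney RNA from 24 mice was read on single-colour arrays. Intensity per spot was deposited as scanner output of Feature Extraction 12.1.1.1, per the file headers, while the submitters' processing notes give 11.5.1.1 and limma. The authors deposited a further table of log2 values for 31409 probes, whose normalization the labels used here do not state. Its column medians were 7.54 to 7.56, and 753197 of 753816 values lay within 0.05 of values computed here with normexp (offset 50) and quantile normalization.

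The processed signal, already background-corrected per the file headers, was taken as log2 minus the 75th percentile of each array. From 59305 non-control spots (3671 control spots left out, spots of 1 probe averaged), 56605 probes gave 22911 named genes through 32994 probes, with the brightest probe over all arrays per gene. The 17736 genes flagged as well above background by the scanner software on 6 or more of 24 arrays were tested with limma 3.58.1 in R 4.3.3, all 3 groups in 1 fit with no covariate. Adjusted p-values are Benjamini-Hochberg values over all tested genes, called under 0.05. Outlier spots were left out, none of them among the matrix genes. No saturated spot was present. The fit was tested on simulated data. P-values measure the spread between mice.

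The members, lists and tests were chosen with earlier results of these data known. Values per group are given for each gene that passed in any comparison and for Col1a1, Col3a1, Col4a1, Col4a3, Fn1, Lox, Tgfb1 and Ctgf, for up to 4 passing genes with the largest change in each list of related genes, and for up to 2 passing markers of each cell type. Alternatives were normexp, quantile or median scaling, the deposited table, filters on dim probes, the mean of probes, slide as a block, slide row as a term, a replicate block, 2 groups only, and each mouse left out. Normexp used median in place of mean signals, and this setting and most of the fits without 1 mouse were added after seeing the data. Sequences came from RefSeq windows of GRCm38.p6, in which 26 of the 42 genes matched. One gene that met the naming rule among the related genes is not reported here.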

Additional observations from a re-analysis of the deposited data

Results flagged for a closer look

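Among the 16 genes given with values per mouse, 5 of 48 group values held a mouse set apart from the rest of its group by Dixon's test, where chance gives about 1 in 20. DKD+enarodustat mouse 3 had a Col4a3 level of −1.65, with the next mouse at 0.13. Without it, Col4a3 differed by −0.46 in DKD+enarodustat against Sham (adjusted p = 0.486, limma). The scanner record of this array had 1 quality measure out of range. DKD+enarodustat mouse 1 had a Tgfb3 level of −1.82, with the next at −1.46, and without it the rise against Sham was 0.44. Sham mouse 2 had an Fbn1 level of −1.83, with the next at −1.46, and without it the rise in DKD+enarodustat against Sham was 0.65 (adjusted p = 0.0350, limma). Sham mouse 6 had a Lum level of −4.13, with the next at −3.25, and without it the rise was 0.54 (adjusted p = 0.0407). Sham mouse 4 had a Thbs1 level of −0.47, with the next at −0.76, and without it the rise was 0.71 in DKD+enarodustat and 0.54 in DKD.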

How the results depend on the processing

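For the 16 genes given with values per group and for P4ha1 and P4ha2, no called change reversed its direction in the 12 settings that changed the processing or the model. Of their 648 values over the 3 comparisons, 593 kept their side of the threshold, 11 passed it newly and 44 no longer passed. The size of the change did not enter these counts. Fbn1 and Thbs1 passed in DKD+enarodustat against Sham in all 12 settings, and Timp3 in 11, without slide row as a term. In DKD+enarodustat against Sham, 9 genes passed, beside 5 with quantile normalization, 2 with slide row as a term and 17 with only the 2 groups fitted. In DKD against Sham, 3 passed, beside 1 with normexp, 1 with the deposited table, 1 with only the 2 groups fitted and 0 with a replicate block. In DKD+enarodustat against DKD none passed, beside 1 (Sparc) with slide as a fixed block. Deviations of same-numbered mice correlated over 0.1 in 3 of 6 pairs (DKD and Sham), 4 of 9 (DKD+enarodustat and DKD) and 3 of 6 (DKD+enarodustat and Sham). The median correlations were 0.121, 0.097 and 0.072 in that order, beside −0.047, 0.019 and −0.031 for other numbers. These values do not settle whether the numbers pair the mice. Under the replicate block the counts were 9 in DKD+enarodustat against Sham and 0 in both other comparisons. Of those 9, Ctgf, Loxl2 and Sparc replaced Col6a1, Lox and Nid1. Among the related genes and markers named in the text, P4ha2 and Emcn against DKD and Adamts4 and Fmod in DKD against Sham were lost under the block. Leaving out 1 mouse gave 4 to 11 genes in DKD+enarodustat against Sham, 0 to 1 in DKD+enarodustat against DKD and 1 to 3 in DKD against Sham. The lowest counts against Sham came without Sham mouse 2 or 3 (4 genes), and in DKD without DKD mouse 2, 5 or 8 or Sham mouse 1, 3, 5 or 6 (Timp3 alone). Timp3 passed in both comparisons in all 24 such fits. Among all called genes in DKD+enarodustat against DKD, 85.0% were higher, beside 72.1% with normexp, 74.8% with quantile normalization and 69.1% with the deposited table. The cause of these shifts was not tested. Aspn and Loxl4 stood well above background on 2 of 6 Sham arrays each, which limits their values there.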
